A study of Mus musculus with 6 samples.

Results

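The Wnt feedback targets described here are 8 genes, Axin2, Nkd1, Rnf43, Znrf3, Notum, Lgr5, Tbx3 and Tnfrsf19, out of 18193 genes with a probe set on the array that is annotated to them alone. They were chosen by name with the KO and WT values of these arrays already known. Those values are therefore given as a description, with no test. Each gene was followed through its brightest probe set, by the mean of the 6 arrays, and its further probe sets are described after it. The KO group held 3 male C57BL/6 mice aged 6 weeks with a liver-specific conditional deletion of p14, the protein encoded by Lamtor2, a late endosomal adaptor of the Ragulator complex. The WT group held 3 male C57BL/6 control mice of the same age, with the p14 WT genotype. Total liver RNA of each mouse was hybridised to 1 Affymetrix array. The Cre line behind the deletion is not given in the sources used here, and the liver samples were whole tissue. Lamtor2, the deleted gene, measured 10.08, 10.19 and 10.11 on the KO arrays, against 11.32, 11.29 and 11.35 on the WT arrays (log2 signal), and it fell (limma, Benjamini-Hochberg adjusted p = 0.0104). The difference of -1.19 lay between -1.23 and -1.17 with 1 array left out, but missed the threshold without KO 2, WT 1, WT 2 or WT 3 (limma adjusted p = 0.0691, 0.114, 0.114 and 0.0505) and with the replicate number as a block (0.116). Whether its probes fall inside the deleted stretch was not analysed here. A pair of arrays stood apart from their groups. WT 2 had a high signal of skeletal muscle markers, with all 10 at a log2 value of 4 or above and a log2 summed signal of 15.43, against 0 or 1 of the 10 and 5.85 to 6.08 on the other 5 arrays. KO 3 lay nearest the WT arrays over all genes tested, at -2.6 on the first principal component, against -30.4 and -22.3 for KO 1 and KO 2 and 14.2 to 21.5 for WT. Values without either or both are given for the feedback targets and some other results, but not for the medians of the cell type marker lists.

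Wnt proteins bind Frizzled and LRP receptors, which halts the complex of Axin, APC, GSK3 and casein kinase that destroys beta-catenin. Beta-catenin then enters the nucleus and, with TCF and LEF factors, switches on target genes, several of which act back on the pathway. In mouse liver the pathway is most active in hepatocytes around the central vein, which receive Wnt2, Wnt9b and R-spondin 3 from endothelial cells and express glutamine synthetase and other pericentral genes.

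All 8 genes had a lower mean in KO livers than in WT livers. The difference of means, KO minus WT on the log2 scale, ran from -1.46 for Axin2 to -0.33 for Znrf3, with a median of -0.82, so that the median KO signal was 56.6% of the WT signal. Over all 10009 genes tested the median difference was -0.04 and 58.4% of genes had a negative one. For 6 of the 8 genes the mean signal was at least 1.5-fold lower in KO, against 5.22% of all genes tested. In 5 of the 8 genes every KO array lay below every WT array, against 14% of all genes. None of these shares tests the 8 genes, because the same contrast was known when they were picked. In whole tissue, fewer cells of a type and less RNA per cell cannot be told apart.

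Among the genes that restrain the pathway inside the cell, Axin2, a scaffold of the destruction complex and a widely used readout of beta-catenin activity, had the difference furthest from 0. Axin2 measured 5.58, 4.95 and 4.91 on the KO arrays, against 6.83, 6.67 and 6.33 on the WT arrays (log2 signal). The groups did not overlap, and the highest KO array lay 0.75 below the lowest WT array. The mean was 5.15 ± 0.38 in KO livers and 6.61 ± 0.26 in WT livers (SD, n = 3 each), so KO livers held 36.3% of the WT signal. Nkd1, which encodes a Dishevelled-binding inhibitor, measured 4.57, 5.55 and 4.93 in KO, against 6.48, 5.55 and 6.00 in WT. KO 2 and WT 2 had the same value for Nkd1, and the other KO arrays were below all WT arrays. The Nkd1 difference of -0.99 compares with an SD of 0.50 in KO and 0.46 in WT (n = 3 each).

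At the cell surface, the transmembrane E3 ubiquitin ligases Rnf43 and Znrf3, a pair of paralogs, mark Frizzled receptors for degradation. Rnf43 measured 7.40, 7.54 and 7.25 in KO, against 9.27, 8.02 and 8.00 in WT. All KO arrays were lower, and WT 1 stood 1.25 above the next WT array. Means of Rnf43 were 7.40 ± 0.14 in KO livers and 8.43 ± 0.73 in WT livers (SD, n = 3 each), a KO signal of 48.9% of WT. Znrf3 measured 7.02, 6.85 and 7.02 in KO, against 7.02, 7.79 and 7.07 in WT. Of these, KO 1, KO 3 and WT 1 shared 1 value, and the Znrf3 difference of -0.33 was smaller than the WT SD of 0.43 (n = 3).

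Outside the cell, Notum, a secreted enzyme that inactivates Wnt proteins by removing their lipid, measured 9.12, 9.74 and 9.76 in KO, against 10.28, 9.91 and 10.01 in WT. The groups did not overlap, with 0.14 between the nearest arrays. Means of Notum were 9.54 ± 0.37 in KO livers and 10.06 ± 0.19 in WT livers (SD, n = 3 each). Lgr5, a receptor for R-spondins that marks cells with high Wnt activity, measured 6.73, 7.08 and 6.82 in KO, against 8.20, 7.75 and 6.88 in WT. For Lgr5 the groups overlapped, because WT 3 lay within the KO range while WT 1 and WT 2 were above it. The Lgr5 difference was -0.73, with an SD of 0.18 in KO and 0.67 in WT (n = 3 each).

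The last 2 genes are targets with roles beyond the pathway. Tbx3, a T-box transcription factor, measured 7.44, 7.47 and 7.14 in KO, against 8.84, 7.72 and 8.23 in WT. All KO arrays were lower for Tbx3, at 53.2% of the WT signal by the means of 7.35 ± 0.18 in KO livers and 8.26 ± 0.56 in WT livers (SD, n = 3 each). Tnfrsf19, an orphan receptor of the TNF receptor superfamily also called Troy, measured 5.28, 5.92 and 5.99 in KO, against 6.90, 6.21 and 6.24 in WT. The Tnfrsf19 groups did not overlap, and the nearest arrays were 0.21 apart. Its mean was 5.73 ± 0.39 in KO livers and 6.45 ± 0.39 in WT livers (SD, n = 3 each).

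**Figure D1:**
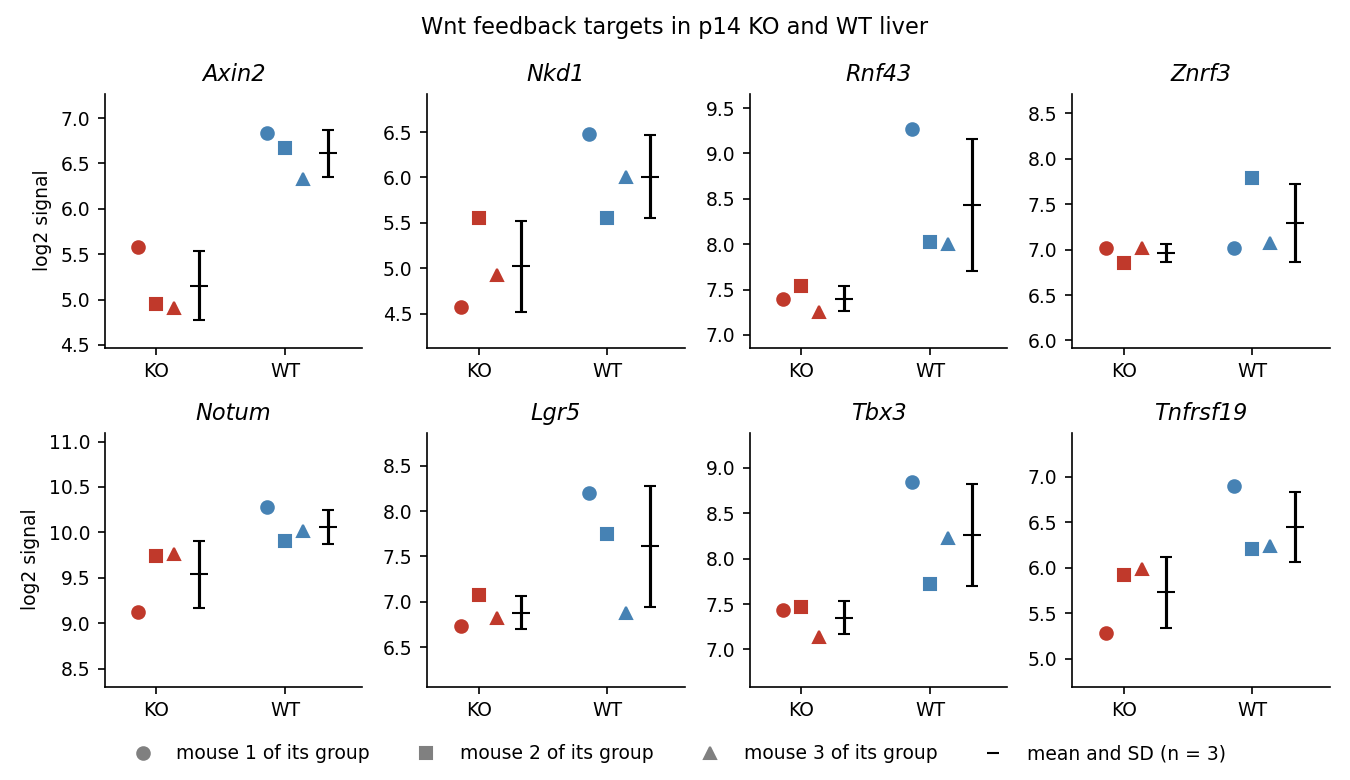
Log2 signal (vertical axes, each spanning the same range) of the 8 genes in KO (red, left) and WT (blue, right) livers. Each point is 1 mouse and the black bars are the mean and SD of 3 mice. Axin2, Rnf43, Notum, Tbx3 and Tnfrsf19 have all KO points below all WT points, while Nkd1, Znrf3 and Lgr5 do not.

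**Figure D2:**
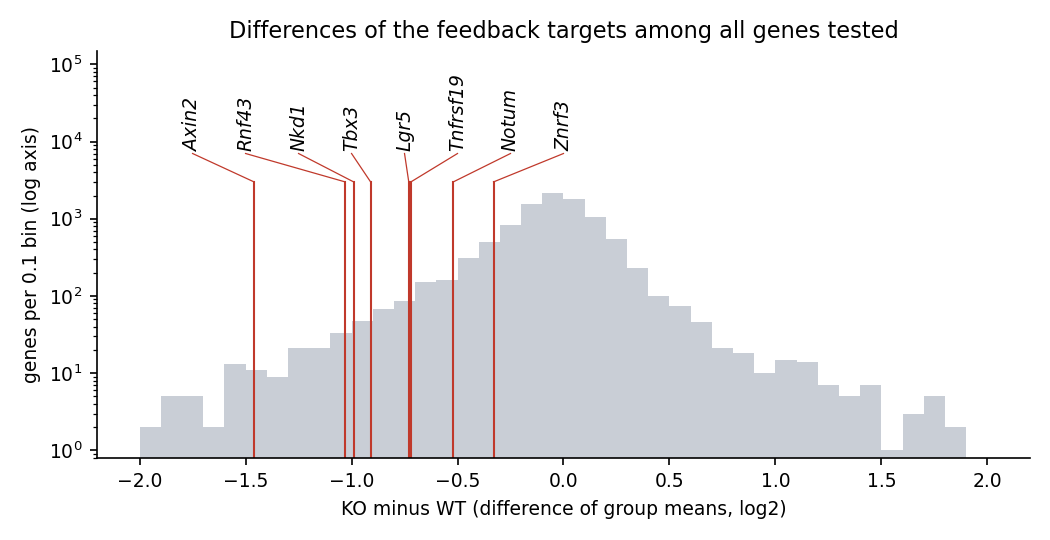
Distribution of the KO minus WT difference (log2, horizontal axis) over the genes tested, as the number of genes per bin on a log axis, with red lines at the 8 genes. All 8 lines lie left of 0, from -1.46 to -0.33. A further 53 genes with a difference beyond 2 in either direction are not drawn.

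After each gene was centred on its own mean, the mean over the 8 was -0.53, -0.28 and -0.44 on KO 1 to KO 3, against 0.80, 0.28 and 0.17 on WT 1 to WT 3. Single genes departed from that mean profile. Znrf3 was at -0.11 on KO 1, KO 3 and WT 1 alike, and Lgr5 was at -0.37 on WT 3. WT 1 was the highest array for 7 of the 8 genes, and for Znrf3 it was WT 2. Without WT 1 the differences kept their sign, at -1.35 for Axin2, -0.76 for Nkd1, -0.61 for Rnf43, -0.47 for Znrf3, -0.42 for Notum, -0.44 for Lgr5, -0.62 for Tbx3 and -0.49 for Tnfrsf19. The median was then -0.55, and 4 of the 8 genes were at least 1.5-fold lower in KO. Single arrays other than WT 1 moved 3 genes by more than 1.5 times. Without WT 2, its highest array, Znrf3 differed by -0.08. Notum differed by -0.31 without KO 1, and Lgr5 by -1.10 without WT 3. KO 3, at -0.44 for the feedback targets, lay between KO 1 and KO 2. The median difference of the 8 was -0.83 without KO 3, -1.01 without WT 2, the array with the muscle signal, and -1.02 without both, when 7 of the 8 were at least 1.5-fold lower in KO.

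The 8 genes had 20 probe sets in all. Of the 12 not used above, 7 were below a log2 value of 4, taken here as the level of detection, on every array. The 4 that passed the filter of 4 or more on at least 3 arrays belonged to Nkd1, Tbx3 and Tnfrsf19. For Tbx3 the choice was close, with a mean over all arrays of 7.80 for the probe set used and 7.63 for the next. That next probe set measured 7.51, 6.94 and 6.32 in KO, against 9.03, 7.45 and 8.54 in WT, a difference of -1.42 with KO 1 just above WT 2. The second probe set of Tnfrsf19 differed by -0.29. For Nkd1 the further probe sets that passed differed by -0.01 and -0.05 at means of 4.41 and 4.38, and another, below 4 on every array, by -0.07 with all KO arrays lower. A difference near -0.99 was thus seen in 1 of the 4 Nkd1 probe sets. The others were dim. Of those, 1 was at 4.36 on every array but WT 1 and another at 3.50 on all KO arrays, so their small differences say little. A dim probe set of Tbx3 reached 4 on 1 array, WT 3, and differed by -0.58. Of the others below 4 throughout, those of Znrf3 and Tnfrsf19 differed by -0.03 and -0.16, and those of Axin2 and Lgr5 and a further pair of Tbx3 by 0.00. Rnf43 and Notum had 1 probe set each.

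Of the 8 genes, 0 were called in the moderated test of limma at a Benjamini-Hochberg adjusted p under 0.05, against 0.17% of the 10009 genes (17 called, 15 lower and 2 higher in KO). The number called over all genes was 140 without KO 3 and between 1 and 6 without any other single array. At an unadjusted limma p under 0.05 there were 6 of the 8, against 14.5% of all genes. Nothing is read from these counts, since the contrast was known when the genes were picked.

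Promoter sequence was at hand in the RefSeq table of build GRCm38.p6 for Axin2, Nkd1, Rnf43 and Tnfrsf19, 4 of the 8 genes with 6 start sites. Each window ran from 250 bases before the start site to 50 after it. The TCF/LEF core was searched as CTTTGAT or CTTTGAA on both strands. These words overlap in their first 6 letters but cannot share a position on 1 strand. Either word was found in 1 of the 6 windows, and in 8.65% of all 32851 windows in the table. The 2 windows below are shown because Axin2 had the difference furthest from 0 and because the Tnfrsf19 window held the match. They are chr11:108920099-108920398 on the + strand (70% G and C) and chr14:61037938-61038237 on the - strand (60.7% G and C). Capitals mark the match, which is CTTTGAT read on the opposite strand and begins 202 bases before the start site.
Axin2: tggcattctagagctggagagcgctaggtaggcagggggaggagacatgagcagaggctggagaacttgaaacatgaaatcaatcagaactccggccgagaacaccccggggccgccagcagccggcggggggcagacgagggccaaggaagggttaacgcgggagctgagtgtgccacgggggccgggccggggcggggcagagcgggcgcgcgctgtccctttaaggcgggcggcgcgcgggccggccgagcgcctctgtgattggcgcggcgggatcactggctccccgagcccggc
Tnfrsf19: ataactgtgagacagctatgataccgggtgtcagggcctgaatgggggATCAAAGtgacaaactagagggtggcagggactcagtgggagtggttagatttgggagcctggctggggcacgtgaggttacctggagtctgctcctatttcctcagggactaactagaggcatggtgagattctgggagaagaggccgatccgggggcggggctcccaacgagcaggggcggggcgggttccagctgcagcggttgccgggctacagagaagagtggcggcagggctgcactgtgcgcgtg
The Axin2 window held no match, which says only that these letters are not in this window.

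Other genes of the pathway were compared between KO and WT in the same limma fit, with p adjusted over all genes. Of 103 listed genes, 100 had a probe set and 47 were tested, the others being below the filter. None of the 47 was called in either direction (limma, 0 at an adjusted p under 0.05). With 0.17% of all genes called, 0 in a list of this size says little. At an unadjusted p under 0.05 there were 12, 8 lower and 4 higher in KO, against 10.1% and 4.32% of all genes, and the median difference of the 47 was -0.05. Most genes named below had the smallest p of their list, so groups that do not overlap follow in part from that choice. Over all 10009 genes tested, 1400 had every KO array below every WT array and 655 had every KO array above.

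Among the 19 Wnt ligands only Wnt2 passed the filter, while 17 were below 4 on every array and Wnt5b reached 4 on 1 array. Wnt2 measured 6.49, 7.25 and 6.77 in KO, against 7.64, 7.58 and 7.76 in WT, a difference of -0.82 (SE 0.20, limma adjusted p = 0.226). All KO arrays were below all WT arrays for Wnt2. Rspo3, the R-spondin that potentiates Wnt signals by way of LGR receptors, measured 5.68, 5.66 and 5.91 in KO, against 6.02, 6.11 and 6.43 in WT (limma adjusted p = 0.285). Its groups did not overlap either, at a difference of -0.44. Lgr4, a further R-spondin receptor, differed by 0.20 and was higher on every KO array (limma adjusted p = 0.317). Wls, which escorts Wnt proteins to the cell surface, differed by -0.21 with overlapping groups, and its further probe sets by -0.14 and 0.20.

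Of 15 receptor genes 10 were tested, 6 with a negative and 4 with a positive difference. Fzd1, a Frizzled receptor, averaged 6.75 ± 0.18 in KO livers and 7.53 ± 0.15 in WT livers (SD of 3 mice, limma adjusted p = 0.129). Another Frizzled, Fzd8, was brighter on every KO array, at 8.80, 9.38 and 8.82, against 7.87, 8.28 and 7.48 in WT (limma adjusted p = 0.214), and its second probe set differed by 1.28. Ror1, a receptor tyrosine kinase that binds Wnt5a, averaged 5.46 ± 0.14 in KO livers and 4.43 ± 0.36 in WT livers (SD of 3 mice, limma adjusted p = 0.178). Each of the 3 receptors had groups that did not overlap, but they were named for their small p, and none passed the threshold.

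Of 15 extracellular inhibitors 3 were tested, with differences of -0.16 for Frzb, -0.06 for Sfrp4 and -0.03 for Kremen1, all with overlapping groups. The destruction complex and Dishevelled list had a median of -0.02 over 15 genes. Its smallest p-values were those of Tnks2, a tankyrase that marks Axin for destruction, at -0.22, and of Axin1, the constitutive Axin scaffold, at -0.33 (limma adjusted p = 0.277 and 0.296). The further probe sets of Tnks2 differed by -0.07 and 0.13. Fbxw11, a subunit of the ubiquitin ligase that recognises beta-catenin, differed by 0.11, and its further probe sets by 0.47 and -0.00. Among 11 nuclear effectors, with a median of -0.06, Ctnnbip1, an inhibitor that keeps beta-catenin from TCF factors, averaged 7.53 ± 0.17 in KO livers and 7.02 ± 0.18 in WT livers (SD of 3 mice, limma adjusted p = 0.242). Bcl9l, a beta-catenin coactivator, differed by -0.37 and the corepressor Tle3 by 0.14.

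Further targets of the pathway gave 4 tested genes of 14, with a median of -0.76. Ccnd1, which encodes cyclin D1, measured 10.82, 11.61 and 11.58 in KO, against 12.40, 12.11 and 12.04 in WT (limma adjusted p = 0.265). All KO arrays were lower for Ccnd1, and its 2 further probe sets differed by -0.95 and -0.89. Jun, a component of AP-1, differed by -0.95 and also had no overlap between groups (limma adjusted p = 0.328). Ccn4 differed by 0.24 at levels near 4. Both Ccnd1 and Jun have inputs besides Wnt.

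**Figure D3:**
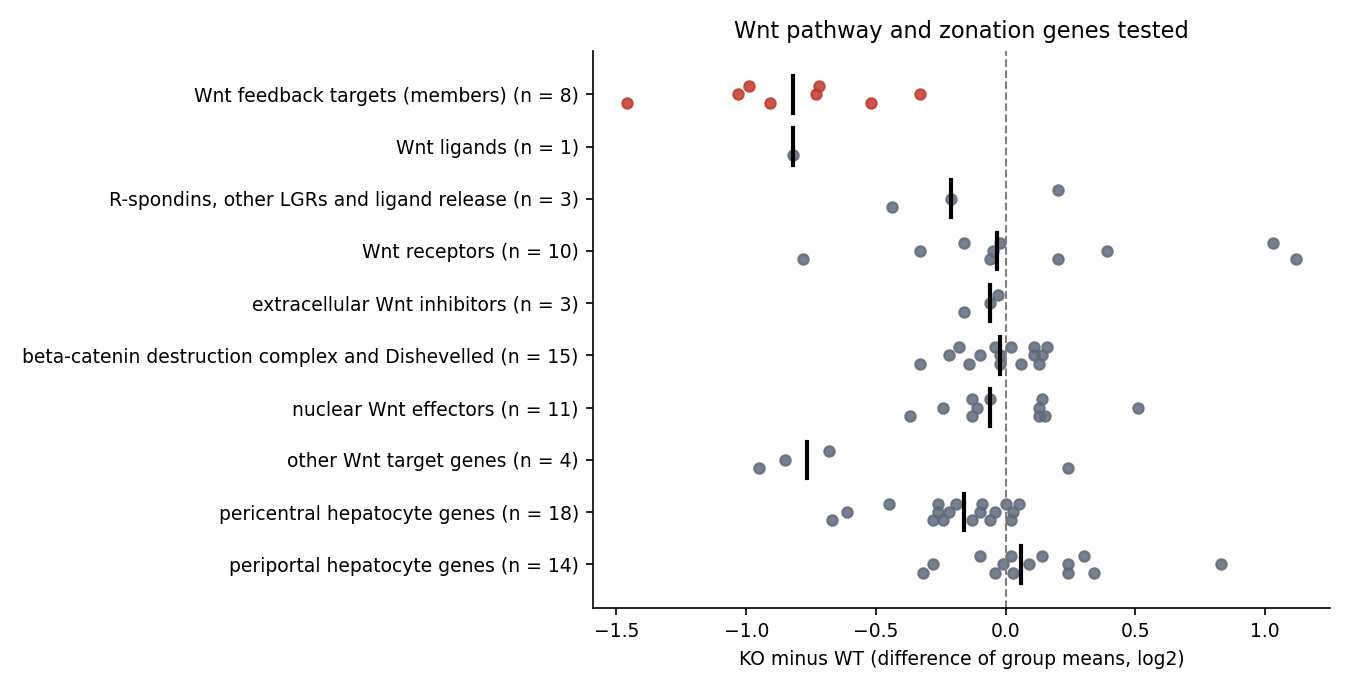
KO minus WT differences (log2, horizontal axis) of the tested genes of each list, 1 point per gene, with the list median as a black bar. The feedback targets (red) have a median of -0.82, the receptors spread from -0.78 to 1.12, and the destruction complex genes lie between -0.33 and 0.16.

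Zonation genes, pericentral and periportal, were tested as 2 lists. Of their 32 tested genes 0 were called, against 0.17% of all genes (limma). At an unadjusted limma p under 0.05 there were 3 of the 32, against 14.5% of all genes. Pericentral genes had a median of -0.16 over 18 tested genes, 15 of them with a negative difference, against 58.4% of all genes. Glul, the glutamine synthetase of the hepatocytes next to the central vein, measured 13.88, 13.86 and 13.74 in KO, against 14.05, 13.83 and 13.99 in WT (limma adjusted p = 0.494). The Glul groups overlapped. Cyp2e1, a pericentral cytochrome P450, averaged 15.69 ± 0.02 in KO livers and 15.66 ± 0.01 in WT livers (SD of 3 mice, limma adjusted p = 0.792), near the highest value of the table at 16.33. Cyp1a2, another pericentral cytochrome P450, differed by -0.22 (limma adjusted p = 0.35).

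Cyp7a1, the rate-limiting enzyme of bile acid synthesis, had the smallest p of the pericentral list, at 12.89, 13.07 and 12.87 in KO, against 13.94, 13.25 and 13.65 in WT (limma adjusted p = 0.25). The Cyp7a1 difference was -0.67, against -0.24 for its further probe set. The amino acid transporter Slc1a4 differed by -0.61, with -0.89 and -0.44 for its further probe sets, and the aryl hydrocarbon receptor gene Ahr by -0.45, against 0.18 for its further probe set. All KO arrays were lower in both, but both were named for a small p, and neither passed the threshold (limma adjusted p = 0.32 and 0.345). Periportal genes, found at the opposite end of the lobule, had a median of 0.06 over 14 tested genes. Pigr, the polymeric immunoglobulin receptor, differed by 0.30 (limma adjusted p = 0.317), and Tat and Pck1, enzymes of amino acid breakdown and gluconeogenesis, by 0.24 each. Further probe sets differed by 0.25 for Pigr and by 0.61 and 0.03 for Pck1.

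Hepatocyte markers were bright on every array, with list means of 15.39 to 15.41 in KO and 15.46 in WT, as the liver label implies. These means lie near the highest value of 16.33. Of the 9 tested, 7 had a negative difference, against 58.4% of all genes tested. Every KO array lay below every WT array in 2, Hnf4a and Apoc3, against 14% of all genes tested, at differences of -0.20 and -0.05. Markers of other liver cells differed between the same groups, and the same shares of all genes apply to their counts. Of 12 endothelial markers, all at 4 or above on every array, 11 had a negative difference and 9 had every KO array below every WT array. Only 1 of the 12, Lyve1, fell (limma adjusted p = 0.0353, and 0.129 to 0.202 without any 1 array other than KO 3). Their list mean was 8.09 to 8.41 in KO, against 8.65 to 8.83 in WT, and the log2 of their summed signal 12.69 to 13.06 in KO, against 12.96 to 13.25 in WT. All 12 macrophage markers had a negative difference, and 8 had every KO array below every WT array. Their median was -0.89 with 0 called (limma), and their list means were 8.61 to 9.87 in KO, against 10.16 to 10.30 in WT. Of 11 tested stellate cell and fibroblast markers 10 had a negative difference and 4 had every KO array below every WT array, with a median of -0.39 and 0 called (limma). Their list means were 8.78 to 9.23 in KO, against 9.23 to 9.74 in WT, where WT 2 was the highest. Markers of dividing cells had a median of -2.68 over 7 tested genes, all 7 with every KO array below every WT array. Top2a and Aurka, 2 of the 7, fell (limma adjusted p = 0.0275 and 0.00114). List means of these markers were 3.43 to 4.56 in KO, against 6.40 to 6.73 in WT. Of the 7, 5 were below 4 on at least 1 KO array and 2, Aurka and Ccna2, on all of them, so their differences rest on signal under the level of detection. Aurka was at least 2.02-fold lower in KO by that level, and the list median was -2.42 with values below 4 set to 4. The Top2a call was lost without any 1 array other than KO 3 (limma adjusted p = 0.105 to 0.16). Cholangiocyte and lymphocyte markers had 1 and 2 tested genes, with medians of 0.08 and 0.15. The part of these cell types in the Wnt values was not tested.

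The order of the KO arrays was not the same in all of these lists. Centred on their mean over the arrays, feedback targets were at -0.53, -0.28 and -0.44 on KO 1 to KO 3, lowest on KO 1 with KO 3 between. That order is of the mean, while the median over the 8 was -0.51, -0.22 and -0.50. Not every gene followed it, as Axin2 was at -0.30, -0.93 and -0.97. Endothelial markers were also lowest on KO 1 and below 0 on every KO array, at -0.43, -0.19 and -0.11. Stellate cell and fibroblast markers were at -0.45, -0.16 and 0.00. Macrophage markers were at -1.08, -0.74 and 0.17 on KO 1 to KO 3, and dividing cell markers at -1.77, -1.69 and -0.64. The 18S rRNA controls were 8.50 to 9.24 in KO, against 7.77 to 8.44 in WT, and the signal of the pyruvate carboxylase control was 3.51 to 3.58 higher at the 3 prime than at the 5 prime end in KO, against 3.99 to 4.85 in WT. The part of these RNA measures in the differences was not tested.

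**Figure D4:**
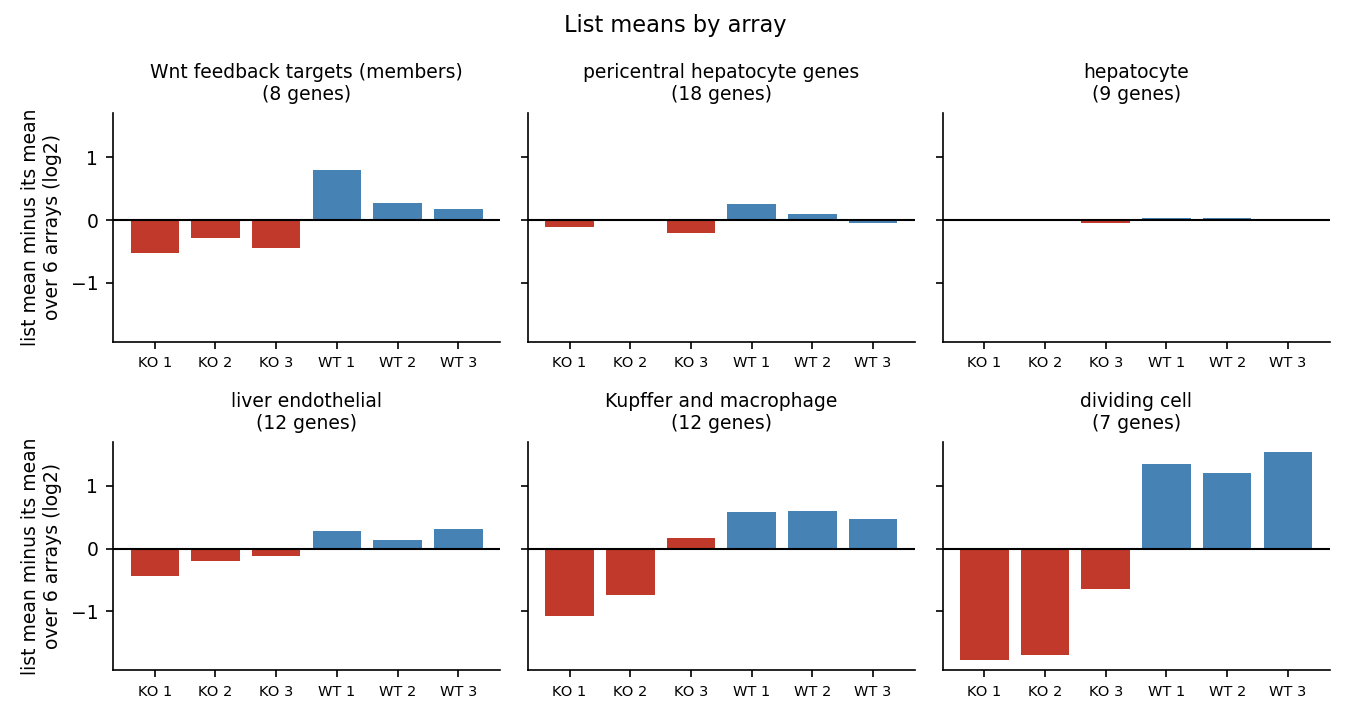
Mean log2 value of 6 gene lists on each array, minus the list's mean over the 6 arrays (vertical axis, the same in all panels), for KO (red, left) and WT (blue, right). Feedback targets are below 0 on all KO arrays and above 0 on all WT arrays, with WT 1 highest at 0.80. Hepatocyte markers stay within 0.04 of their mean, at list means near the highest value measured.

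Among 9713 tested genes outside the list, with 288 predicted genes and clone names set aside, those whose centred values over the 6 arrays lay closest to the mean profile of the feedback targets were Tbc1d10b, Hip1, Rdh9, Trim12a and Zbtb26. Closeness was the root mean square distance on the log2 scale, which was 0.092 for Tbc1d10b and 0.147 for Zbtb26. Among the feedback targets themselves it was smallest for Tnfrsf19, at 0.199, and largest for Znrf3, at 0.469, followed by Axin2 at 0.428. Hip1 was dim in KO, at 4.36, 4.50 and 4.53, and its difference of -0.75 compares with 0.10 for its further probe set. Tbc1d10b, which encodes a Rab GTPase-activating protein, measured 6.55, 6.72 and 6.64 in KO, against 7.68, 7.14 and 7.23 in WT. Rdh9, a retinol dehydrogenase family member, measured 12.79, 13.25 and 12.95 in KO, against 14.15, 13.80 and 13.41 in WT. Both were highest on WT 1, as were the feedback targets other than Znrf3. The choice of these genes by their profile makes their differences a description.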

How the data were processed

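Liver RNA of 3 KO and 3 WT mice, 1 ug of total RNA each, was hybridised to 1 Affymetrix array per mouse. The authors deposited one log2 value for each probe set and array. The submitters' processing notes list GCRMA 2.16.0 and R 2.9.1. GCRMA corrects background by probe sequence and normalises across arrays, so low signals gather at a lowest value, 2.18, which held 28.9% of all values. The number of arrays limits the precision.

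Of 45101 probe sets, 64 were manufacturer controls. By the platform annotation 34945 carried just 1 gene symbol, giving 18193 genes, each represented by its brightest probe set by mean over 6 arrays. Genes at 4 or above on at least 3 arrays were tested (10009). The contrast KO minus WT was fitted with limma 3.58.1 in R 4.3.3 (eBayes after lmFit, no covariates, Benjamini-Hochberg adjustment over all genes tested, call under 0.05), after a check on simulated data. The members, lists and alternatives were chosen with earlier results of these data known. Named genes were the called genes of each pathway list or else the 3 with the smallest p, plus Lamtor2, Glul, Cyp2e1, Cyp1a2 and the 5 nearest profiles. Same-numbered KO and WT mice did not deviate together, though 3 arrays in each group cannot exclude a pairing, and the main fit used no block. Figures were drawn with matplotlib 3.10.9.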

Additional observations from a re-analysis of the deposited data

How the results depend on the processing

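The difference of each of the 8 feedback targets stayed negative under all 16 alternatives to the filter, probe set rule, scaling, variance model and choice of arrays. Several of these cannot alter a difference of means for the 8, so its sign there was fixed in advance. They are the changes of filter, values below 4 set to 4, the eBayes alternative and the replicate block. The median difference of the 8, -0.82, was -0.46 with the mean of all probe sets of a gene. That mean brings in probe sets below the level of detection, and the number at least 1.5-fold lower was then 2 in place of 6. With 1 array left out the median lay between -1.01 and -0.55. The number at least 1.5-fold lower lay between 4 and 7, and the number with every KO array below every WT array between 5 and 7. The latter cannot fall when an array is left out, so its lower end of 5 was fixed in advance. The count and fold rules on the 8 genes under alternatives were chosen after seeing the data, as were those of the called marker genes. The median of pericentral genes ranged from -0.25 without WT 3 to -0.08 without KO 3. No pathway gene outside the feedback targets and no zonation gene was called in limma under any alternative, with 8 to 12 and 2 to 7 of them at an unadjusted p under 0.05. Calls of the feedback targets themselves under the alternatives are not given.

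Over all genes 17 were called, against 3 with no filter, 3 with KO 3 and WT 2 both left out, and 1 to 140 with 1 array left out (140 without KO 3, 6 without KO 1, 5 without WT 3, and 1 without KO 2, WT 1 or WT 2). With the replicate number as a block, 0 genes were called in limma (1235 at an unadjusted p under 0.05), and the Lamtor2 difference of -1.19 had an adjusted p of 0.116. The deviations of same-numbered arrays correlated over genes at -0.086, -0.079 and -0.141, and those of differently numbered arrays at -0.074 to 0.157. With 3 arrays in each group these values cannot exclude that the numbers pair the mice. Lamtor2 also missed the threshold with KO 3 and WT 2 left out (-1.20, limma adjusted p = 0.114) and without KO 2, WT 1, WT 2 or WT 3 (limma adjusted p = 0.0505 to 0.114), while its difference with 1 array left out lay between -1.23 and -1.17; the cause was not tested. With the block, Lyve1, Top2a and Aurka each had a limma adjusted p of 0.116. With no filter Lyve1 and Top2a each had 0.169, and leaving out KO 3 together with WT 2 gave 0.0806 for Lyve1 and 0.06 for Aurka. Values close to 0 changed sign for Sfrp4 (0.01 with median centring), Cyp2e1 (-0.02 with quantile normalisation) and Kremen1 (0.02 with quantile normalisation, 0.04 with median centring, 0.14 without both KO 3 and WT 2, and between -0.12 and 0.11 with 1 array left out).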

Other observations

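Within the WT group, 3 of the 8 feedback targets, Lgr5, Axin2 and Rnf43, were lowest on WT 3. For Rnf43 the values were close, at 8.00 on WT 3 and 8.02 on WT 2. The share of all genes lowest on WT 3 is not given, so nothing is read from this count. Among other genes, 2 that were also lowest there are given here, chosen after their values were seen. Slc1a2, a glutamate transporter of pericentral hepatocytes, measured 11.13, 10.89 and 10.89 in KO, against 11.84, 11.17 and 9.85 in WT. Cd44, a hyaluronan receptor and Wnt target, measured 7.10, 6.99 and 7.91 in KO, against 8.61, 8.41 and 7.01 in WT. Both had overlapping groups and neither was called (limma adjusted p = 0.992 for Slc1a2 and 0.53 for Cd44). Slc1a2 had a difference of 0.02, with an SD of 0.14 in KO and 1.02 in WT (n = 3 each).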
